A study of Mus musculus with 8 samples.

Results

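The tripartite motif (TRIM) genes with antiviral roles were followed through the response of mouse mammary cells to interferon-α (IFNα). The set held 9 genes, Trim30a, Trim30d, Trim34a, Trim12c, Trim14, Trim21, Trim25, Trim26 and Trim56, taken by name. This choice was made with earlier results of these data known. The genes were found by the gene symbol of the array's probes, and all 9 were measured, by 16 probes, among 21794 genes tested. Mammary cells were taken from virgin FVB/N-J mice of wild-type genotype in all groups. One fraction was enriched for the stem cells of the gland (MaSC), which belong to the basal layer, and the other for progenitors of the luminal lineage (LP). The 4 groups were MaSC control, MaSC with IFNα, LP control and LP with IFNα, each of 2 samples. Cells were grown in suspension as mammospheres and harvested after 8 days, and the treated cultures received IFNα at 1000 U/ml. The labels give both fractions the same surface markers and do not say whether sorting came before or after the culture. Nor is it stated that the replicates were separate mice or cultures, so the p-values cover no more than the spread among these arrays, which may be technical.

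TRIM proteins carry a RING domain, a B-box and a coiled coil, and most act as E3 ubiquitin ligases, which attach ubiquitin to other proteins. Several of them guard cells against viruses, either by binding viral particles in the cytosol or by tuning the sensors of viral RNA and DNA that lead to interferon production. Type I interferon binds its receptor on epithelial cells and switches on target genes, many TRIM genes among them, through the interferon-stimulated response element (ISRE) near their start. The mouse genome holds a block of TRIM genes on chromosome 7, related to human TRIM5, TRIM22 and TRIM34, that has expanded in rodents.

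The promoters of the 5 members whose average response passed the threshold given below are shown. All 5 held the core of the ISRE close to the start of transcription. The motif searched was GAAA, then any 2 bases (NN), then GAAA again, on both strands, so that it reads TTTC, NN, TTTC when it lies on the other strand, and overlapping matches were counted. It was found in 3.44% of the 32851 promoters of 300 bases (250 before to 50 after a start) given by RefSeq for GRCm38.p6, and in 3.99% of 27025 genes. Of the members 8 matched a promoter entry, and Trim14 did not. The motif was present in 6 of these 8 genes: Trim30a, Trim30d, Trim12c, Trim34a, Trim21 and Trim26. The windows below run from 100 bases before the start to 30 bases after it, 5′ to 3′ on the strand of the gene, with the motif in capitals. For Trim30a, which has a pair of listed starts, the one further upstream is shown. Trim12a, a neighbour of Trim12c that did not pass in any response, is shown for comparison.
Trim30a, chr7:104465164-104465293, minus strand: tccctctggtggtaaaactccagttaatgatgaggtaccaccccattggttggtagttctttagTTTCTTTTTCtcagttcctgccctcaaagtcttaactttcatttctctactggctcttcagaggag
Trim30d, chr7:104507820-104507949, minus strand: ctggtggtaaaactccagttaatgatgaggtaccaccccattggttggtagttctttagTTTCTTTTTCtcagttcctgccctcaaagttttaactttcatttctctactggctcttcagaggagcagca
Trim12c, chr7:104353320-104353449, minus strand: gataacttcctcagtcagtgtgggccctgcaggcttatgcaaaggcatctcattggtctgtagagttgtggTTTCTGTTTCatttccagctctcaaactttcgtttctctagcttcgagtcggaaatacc
Trim34a, chr7:104244357-104244486, plus strand: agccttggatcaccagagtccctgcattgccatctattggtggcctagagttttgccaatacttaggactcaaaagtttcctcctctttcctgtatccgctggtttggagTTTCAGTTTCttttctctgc
Trim21, chr7:102565453-102565582, minus strand: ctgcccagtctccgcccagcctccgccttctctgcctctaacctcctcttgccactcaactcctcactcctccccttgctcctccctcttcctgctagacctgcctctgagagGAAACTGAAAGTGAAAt
Trim12a, chr7:104315466-104315595, minus strand: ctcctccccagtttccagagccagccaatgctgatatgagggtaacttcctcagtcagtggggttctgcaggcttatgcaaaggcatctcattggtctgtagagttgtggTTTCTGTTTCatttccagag
In Trim30a and Trim30d the motif began at positions -36 and -41, counted from the first transcribed base as 1. The promoters of both genes shared an unbroken run of 118 identical bases, so these matches are not independent of each other. In Trim12c it began at -29, in Trim34a at 11 and in Trim21 at 14, where a further match overlaps it at 20. Trim12a held the same motif letters as Trim12c within a shared run of 63 bases, with the motif at 11. A match is a description of the letters in these windows, and binding was not measured.

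Every value below is a log2 ratio of the sample's signal to that of a common reference RNA from a mix of mouse cell lines. A value of 0 means equal signal in both, and ratios of different genes are not compared with each other. A response is the IFNα group minus its control group on this scale. The log base and the direction of the ratio were not stated and were inferred from the values and the dyes. LP control replicate 1 stood apart from the other arrays. Its standard deviation over probes was 0.63, where the other 7 lay between 1.19 and 1.26. Many of the results that rest on it, though not all, are therefore also given without it. In those fits the lone LP control is assumed to vary like the other groups. Tests are limma's moderated tests on all genes, two-sided, adjusted by Benjamini and Hochberg over 21794 genes, and a gene passed below 0.05.

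Trim30a gave the largest response of the 9 genes. It is known in mice as a brake on Toll-like receptor signalling that removes the adaptor proteins TAB2 and TAB3. Its log2 ratios were -3.73 and -5.12 in the MaSC controls and 3.06 and 2.35 in MaSC with IFNα. In LP they were -2.30 and -5.09 in the controls and 3.44 and 3.52 with IFNα. All 4 treated arrays lay far above all 4 controls, with a gap of 4.65 between the lowest treated and the highest control. The response was 7.13 ± 0.94 (SE, n = 2 against 2) in MaSC and 7.17 ± 0.94 in LP. Neither passed on its own in limma (adjusted p = 0.0806 and 0.0653). The average of both responses was 7.15 ± 0.66 and passed (limma adjusted p = 0.0112, higher in 4 of 4 treated arrays). Ranked by the size of the rise, Trim30a stood at place 3 of all genes in MaSC and at place 2 in LP. In the fit on 7 arrays, without LP control replicate 1, the LP response was 8.57 (limma adjusted p = 0.0202) and the average 7.85 (adjusted p = 0.00334). The MaSC response kept its value in that fit and passed (adjusted p = 0.0176), since the spread is shared over all groups.

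Trim30d, a neighbour and close relative of Trim30a, followed the same course. The log2 ratios of Trim30d were -3.67 and -2.48 in the MaSC controls and 2.63 and 2.12 with IFNα. In LP they were -0.33 and -2.69 in the controls and 3.22 and 3.42 with IFNα. The treated arrays did not overlap with the controls, among which LP replicate 1 was the highest. The response was 5.45 ± 0.80 in MaSC (limma adjusted p = 0.106) and 4.83 ± 0.80 in LP (adjusted p = 0.144), and the average of 5.14 ± 0.56 passed (adjusted p = 0.0217). With that array left out, MaSC passed (limma adjusted p = 0.026), LP was 6.01 (adjusted p = 0.0388) and the average was 5.73 (adjusted p = 0.00626). Each of Trim30a and Trim30d rests on 1 probe, and whether those probes read the other gene's transcript was not tested.

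Trim12c was the member that passed the threshold in both populations taken alone. It belongs to the TRIM5-related genes of the mouse and has been described there as raising interferon and NF-κB signalling. Its value is the mean of 3 probes, none of which passed singly in MaSC or LP (lowest limma adjusted p = 0.0521 and 0.209). Log2 ratios of Trim12c were -1.13 and -0.96 in the MaSC controls and 1.30 and 1.23 with IFNα. In LP they were 0.05 and -0.32 in the controls and 1.69 and 2.20 with IFNα. All treated arrays were above all controls, and in each state both LP arrays were above both MaSC arrays. The probes differed in this order with IFNα. Probe 1 had MaSC (1.91 and 1.86) above LP (1.80 and 1.74), probe 2 overlapped, and probe 3 had LP above MaSC. The response of the gene was 2.31 ± 0.25 in MaSC (limma adjusted p = 0.0412), 2.08 ± 0.25 in LP (adjusted p = 0.0482) and 2.19 ± 0.17 on average (adjusted p = 0.00635). Leaving out LP control replicate 1 gave an average of 2.28 (limma adjusted p = 0.0193), while MaSC (adjusted p = 0.0603) and LP (2.26, adjusted p = 0.129) did not pass. The single-population calls were lost without any one of the 8 arrays, with adjusted p from 0.0603 to 0.337 in MaSC and 0.056 to 0.268 in LP, while the responses stayed within 2.22 to 2.39 and 1.82 to 2.33.

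Trim34a, the mouse relative of human TRIM34, which in human cells helps TRIM5 to bind some retroviral capsids, had log2 ratios of 0.24 and -0.35 in the MaSC controls and 1.64 and 1.48 with IFNα. In LP they were 0.22 and -0.24 in the controls and 2.05 and 2.40 with IFNα. The control ranges of both populations covered each other, and the treated LP arrays were above the treated MaSC arrays. The response was 1.61 ± 0.29 in MaSC (limma adjusted p = 0.215) and 2.23 ± 0.29 in LP (adjusted p = 0.0634), and the average of 1.92 ± 0.20 passed (adjusted p = 0.0189). It passed as well without LP control replicate 1, at 2.04 (limma adjusted p = 0.045).

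Trim21, a cytosolic receptor for antibodies that sends antibody-coated virus to the proteasome, had log2 ratios of 0.92 and 0.16 in the MaSC controls and 2.80 and 2.50 with IFNα. In LP they were 1.11 and 0.83 in the controls and 3.08 and 3.21 with IFNα. No control array came near a treated one, the gap over all arrays being 1.39. The response was 2.11 ± 0.30 in MaSC (limma adjusted p = 0.0978) and 2.17 ± 0.30 in LP (adjusted p = 0.0759). The average of 2.14 ± 0.21 passed (limma adjusted p = 0.0141), and without LP control replicate 1 it was 2.21, just short of the threshold (adjusted p = 0.0502).

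**Figure D1:**
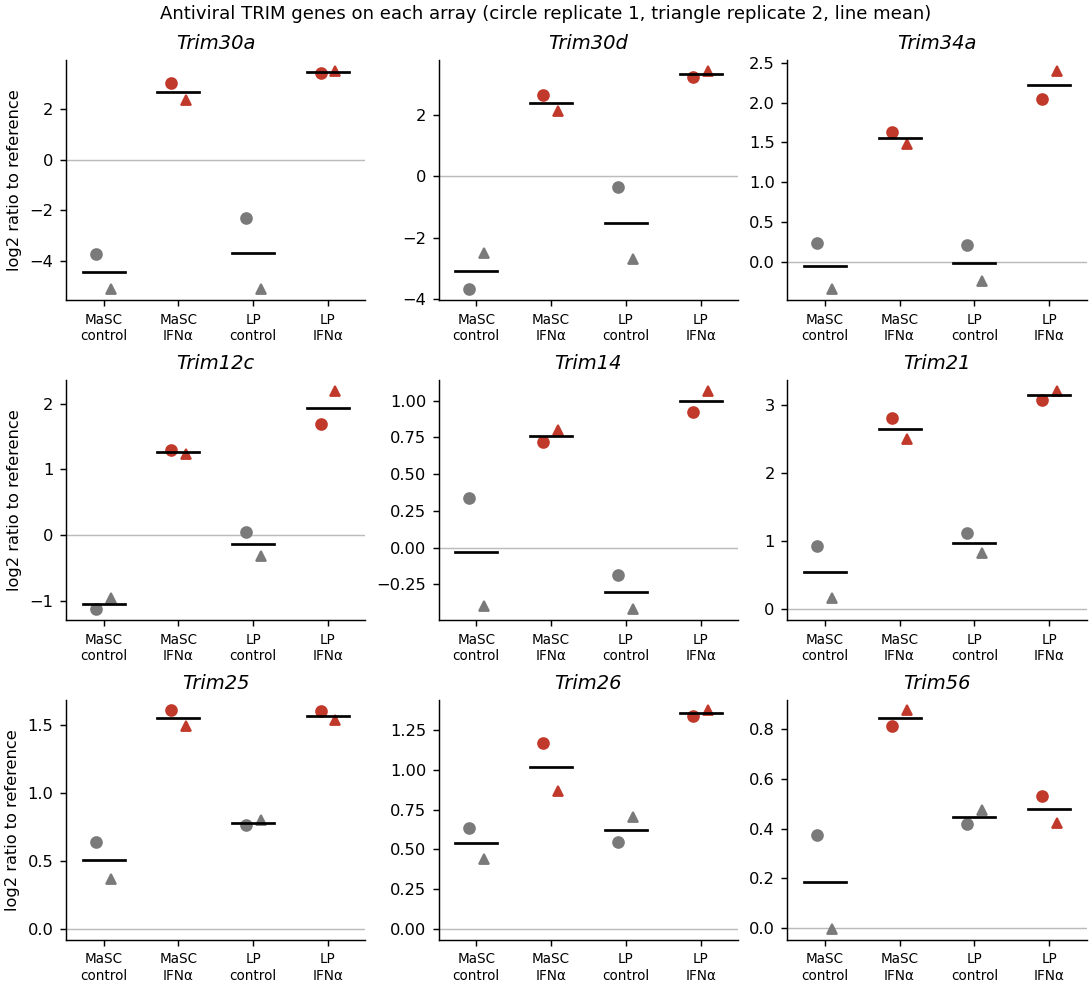
Log2 ratio to the reference (vertical axis, its own scale in each panel) of the 9 TRIM genes on the 8 arrays in 4 groups, controls in grey and IFNα in red, with circles for replicate 1, triangles for replicate 2 and a line at the group mean. In 8 of 9 genes all treated arrays lie above all controls, and Trim56 is the exception through LP.

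The other 4 members act on the pathways that sense viral nucleic acid, and none of them passed as a gene. Trim25 attaches ubiquitin to RIG-I, the sensor of viral RNA encoded by Ddx58, and so switches it on. Its log2 ratios were 0.64 and 0.37 in the MaSC controls and 1.60 and 1.49 with IFNα, and 0.76 and 0.80 in the LP controls and 1.60 and 1.53 with IFNα. The treated arrays were close together and all above the controls. The response was 1.04 ± 0.18 in MaSC, 0.79 ± 0.18 in LP and 0.92 ± 0.13 on average (limma adjusted p = 0.194, 0.356 and 0.0607).

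Trim14 lacks a RING domain and works as an adaptor at MAVS, the mitochondrial protein that relays the RIG-I signal. Its log2 ratios were 0.34 and -0.40 in the MaSC controls and 0.72 and 0.80 with IFNα, and -0.19 and -0.42 in the LP controls and 0.92 and 1.07 with IFNα. The groups did not overlap, although the MaSC controls were further apart than the treated arrays of both populations. The response was 0.79 ± 0.28 in MaSC, 1.30 ± 0.28 in LP and 1.04 ± 0.20 on average (limma adjusted p = 0.969, 0.292 and 0.182).

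Trim26 has been linked to the turnover of IRF3 and to signalling through TBK1. Its log2 ratios were 0.64 and 0.44 in the MaSC controls and 1.17 and 0.87 with IFNα, and 0.55 and 0.70 in the LP controls and 1.34 and 1.38 with IFNα. The lowest treated array was 0.17 above the highest control. The response was 0.48 ± 0.19 in MaSC, the smallest of the members there, and 0.73 ± 0.19 in LP (limma adjusted p = 1 and 0.433), and the average was 0.61 ± 0.14 (95% interval 0.27 to 0.94, limma adjusted p = 0.31).

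Trim56, a ligase of the STING and TLR3 pathways, had the smallest response of the members in LP and on average. Log2 ratios of Trim56 were 0.38 and 0.00 in the MaSC controls and 0.81 and 0.88 with IFNα, and 0.42 and 0.48 in the LP controls and 0.53 and 0.42 with IFNα. The MaSC groups did not overlap, whereas in LP one treated array lay at the level of the lower control. The response was 0.66 ± 0.20 in MaSC (limma adjusted p = 0.778) and 0.03 ± 0.20 in LP (95% interval -0.45 to 0.51, adjusted p = 0.988). The difference between these responses was 0.63 (95% interval -0.05 to 1.31) and did not pass (unadjusted p = 0.0644, limma adjusted p = 1). In LP the order of the groups turned under some processing settings. Without LP control replicate 1 the LP response was 1.41 in Trim14, 0.77 in Trim25, 0.65 in Trim26 and 0.00 in Trim56. The average was then 1.10, 0.91, 0.57 and 0.33 in the same order.

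The members were chosen with earlier results of these data known, so the shares of all genes set beside them are a description. As a set, all 9 genes had a positive response in both populations, which 9024 of all 21794 genes had in MaSC and 10991 in LP. Among the members, Trim56 in LP turned under other scalings or probe choices. Trim14 in MaSC and Trim25 in LP turned when the probe with the highest mean log2 ratio stood for the gene. In MaSC 1 member passed, Trim12c, where 0.229% of all genes passed upward, and the median over members was 1.61 against -0.05 over all genes. In LP 1 passed, again Trim12c, where the share over all genes was 0.33%, with medians of 2.08 and 0.00. In the average response 5 passed (Trim30a, Trim30d, Trim34a, Trim12c and Trim21), where the share over all genes was 0.587%, with medians of 1.92 and -0.02. No member passed downward, which 0.00459% of all genes did in MaSC, 0% in LP and 0.00459% in the average, with or without LP control replicate 1. An unadjusted limma p below 0.05 was reached by 9 members in MaSC, 8 in LP and 9 in the average, and by 4.54%, 7.42% and 6.54% of all genes. Treated and control arrays did not overlap in 9 of 9 members in MaSC (11.7% of all genes), 8 of 9 in LP (17.9%) and 8 of 9 over both populations (1.48%). Members passing without LP control replicate 1 numbered 2 in MaSC, 2 in LP and 4 in the average, where 0.257%, 0.248% and 0.482% of all genes passed upward. The average count also fell without other arrays: to 4 without MaSC control replicate 1, to 2 without MaSC control replicate 2, to 1 without MaSC IFNα replicate 2 or either LP IFNα array, and to 0 without MaSC IFNα replicate 1, where Trim12c had the lowest limma adjusted p of the members (0.0543). With 1 array left out, fewer of all genes passed in the average response too, except without LP control replicate 2, where more did. All average responses of the members stayed positive in these 8 fits. Over the 15 alternatives run, the limma adjusted p of the average ran from 0.000376 to 0.103 for Trim30a, 0.00521 to 0.172 for Trim30d, 0.00376 to 0.13 for Trim34a, 0.00616 to 0.0543 for Trim12c and 0.0141 to 0.165 for Trim21. Because each value is the mean over a whole sample, more cells expressing a gene and more RNA per cell cannot be told apart.

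The responses of MaSC and LP could be set against each other directly, as the difference MaSC minus LP. No member passed in limma, none reached an unadjusted p below 0.05, and 0% of all genes passed, with 931 below that unadjusted level. The differences ran from -0.62 in Trim34a (95% interval -1.62 to 0.38) to 0.63 in Trim56. For Trim30a the difference was -0.04 with an interval of -3.29 to 3.21, and for Trim30d 0.62 with an interval of -2.14 to 3.38. For Trim12c it was 0.23 (-0.62 to 1.09), for Trim21 -0.06 (-1.10 to 0.98), for Trim14 -0.51 (-1.47 to 0.45), for Trim25 0.26 (-0.37 to 0.88) and for Trim26 -0.25 (-0.93 to 0.42). These intervals leave room for sizeable differences in Trim30a and Trim30d, and a p above the threshold does not show that the populations respond alike. The difference without LP control replicate 1 was -1.44 for Trim30a and -0.56 for Trim30d, and again no member passed.

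**Figure D2:**
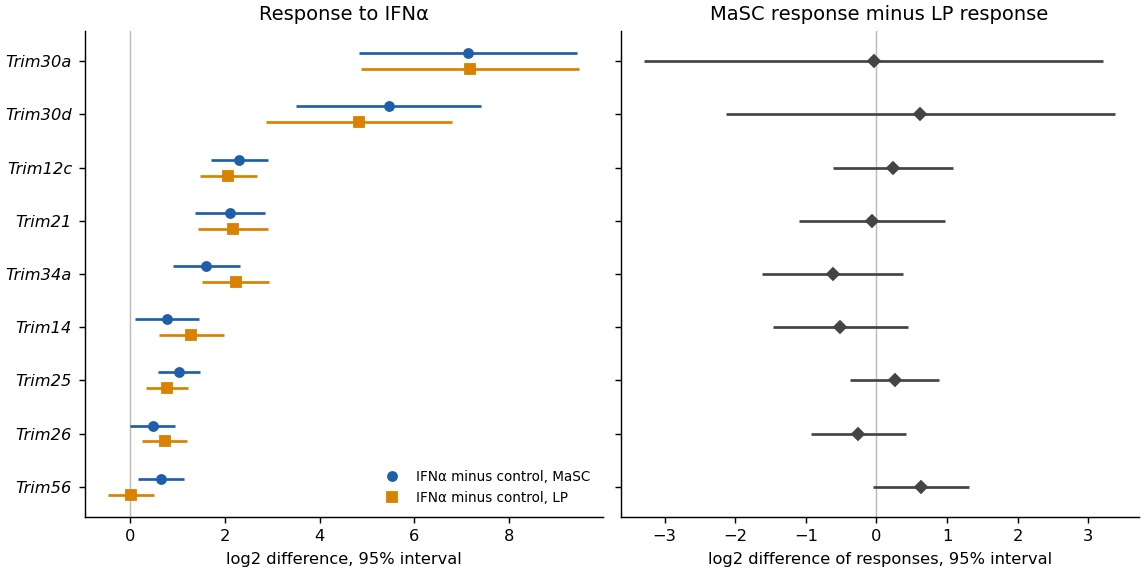
Left, the response to IFNα (log2 difference, horizontal axis) of each gene in MaSC (blue circles) and LP (orange squares), and right, the MaSC response minus the LP response, with lines for 95% intervals from limma. The responses fall from about 7 in Trim30a to 0.03 for Trim56 in LP, and all 9 intervals of the difference include 0.

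Between the populations themselves no member passed in limma. An unadjusted p below 0.05 was reached by 1 member of 9, Trim12c, in each state, where 13.8% of all genes reached it among controls and 16.9% with IFNα. Among controls 8 of 9 members were lower in MaSC, while 10749 of all 21794 genes were higher there. Trim12c was at -0.91 (95% interval -1.51 to -0.30, limma adjusted p = 0.211). Of all genes 0.0413% passed as lower in MaSC and 0.56% as higher. Without LP control replicate 1, where 0.0184% of all genes passed as higher and 0% as lower, 6 of 9 members were lower. Trim30a then turned from -0.73 to 0.66, Trim34a from -0.04 to 0.19, and Trim12c was at -0.73 (unadjusted p = 0.0554). With IFNα again 8 of 9 members were lower in MaSC, while 10462 of the 21794 genes were higher. Trim56 was the exception at 0.37 (95% interval -0.11 to 0.85). Here 0.0505% of all genes passed as lower and 0.454% as higher. Trim12c was at -0.68 (limma adjusted p = 0.256) and Trim34a at -0.66 (95% interval -1.37 to 0.05). Both LP arrays lay above both MaSC arrays in 3 of 9 members among controls (22.7% of all genes) and in 7 of 9 with IFNα (28.6%). The members' median difference was -0.27 among controls and -0.49 with IFNα, against -0.01 and -0.03 over all genes. Under other scalings or probe choices the sign turned for Trim30a among controls and for Trim12c, Trim14 and Trim25 with IFNα.

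Of the members 5 were read by several probes, and these did not always show the same response. Tested one by one over 55334 probes, where 0.305% passed upward in the average response, 7 of the 16 member probes passed. Trim14 showed the widest spread. Its probe 2 went from -0.76, -1.67, -0.29 and -1.15 in the controls to 1.64, 1.33, 2.23 and 2.47 with IFNα (MaSC first). That average response of 2.89 ± 0.30 passed (limma adjusted p = 0.0267), while probes 1 and 3 were at 0.14 (adjusted p = 0.977) and 0.10 (adjusted p = 0.969). The gene's mean of 1.04 thus joins 1 probe that rose and 2 that did not pass. In Trim34a probe 2 rose by 3.09 (limma adjusted p = 0.00732) and probe 1 was at 0.76 (adjusted p = 0.716). In Trim25 probe 1 rose by 1.63 (limma adjusted p = 0.0217) and probe 2 was at 0.20 (adjusted p = 0.956). The 3 probes of Trim12c were at 1.91, 3.45 and 1.22 (limma adjusted p = 0.0138, 0.142 and 0.222), and those of Trim56 at 0.23 and 0.46. All 16 probes had a positive average response, as did 10190 of the 21794 genes, and the share over all probes was not counted. The places of these probes on the transcripts were not used here, and the cause of their differences was not tested.

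**Figure D3:**
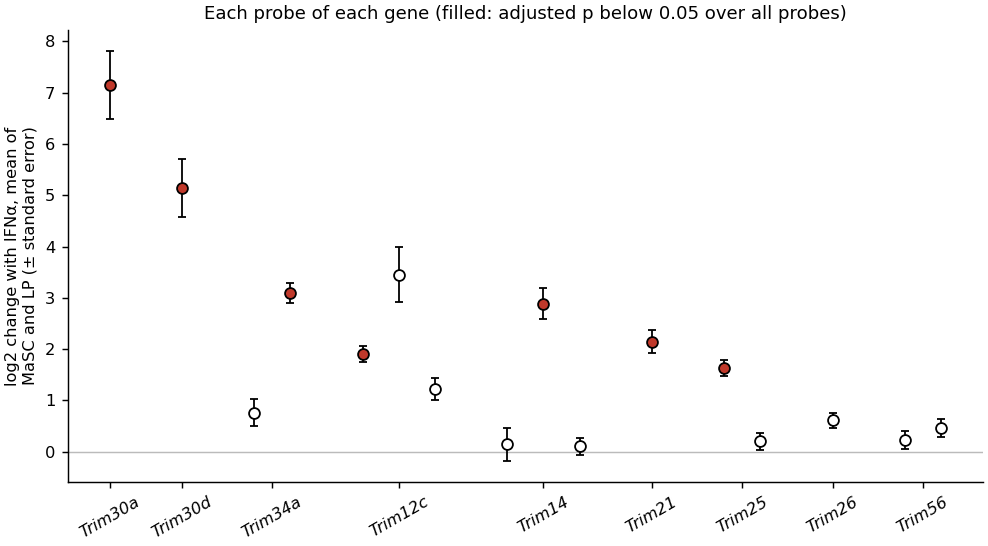
Average response to IFNα (log2, vertical axis, ± standard error) of each of the 16 probes, grouped by gene. Filled points passed over all probes (adjusted p below 0.05), and Trim14, Trim34a and Trim25 each have 1 filled point and lower open ones.

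On chromosome 7 the RefSeq annotation places 10 TRIM genes of the expanded block in the order Trim6, Trim34a, Trim5, Trim12a, Trim34b, Trim12c, Trim30b, Trim30c, Trim30a and Trim30d, and 4 of them are members. Trim21 lies on the same chromosome outside this block. Trim14 is on chromosome 4, Trim56 on 5, Trim25 on 11 and Trim26 on 17. Among the 6 relatives in the block that are not members, Trim34b had the largest response. Its log2 ratios were -0.50 and -0.60 in the MaSC controls and 2.20 and 2.23 with IFNα, and 0.08 and 1.47 in the LP controls and 2.64 and 2.53 with IFNα. All treated arrays lay above all controls, and the average of 2.29 ± 0.31 was just short of the threshold (limma adjusted p = 0.051). Without LP control replicate 1 it was 1.94 and passed (limma adjusted p = 0.0103). Trim30b was at 0.98 (limma adjusted p = 0.459), Trim6 at 0.61 (adjusted p = 0.715) and Trim5 at -0.09 (adjusted p = 0.986). Trim12a was at -0.53 (limma adjusted p = 0.944) and Trim30c at -0.48 (adjusted p = 0.926). The Trim30c average joined a MaSC response of -1.50 (95% interval -2.59 to -0.40) and an LP response of 0.54 (-0.56 to 1.63). Neither passed (limma adjusted p = 0.781 and 0.825). Trim12a and Trim5 held the ISRE core of the printed windows, at 11 and -49, in promoters that shared a run of 241 bases, and neither passed. The sign of both values turned under some settings. In Trim34b, Trim30b, Trim30c and Trim6 these letters are not in the window.

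**Figure D4:**
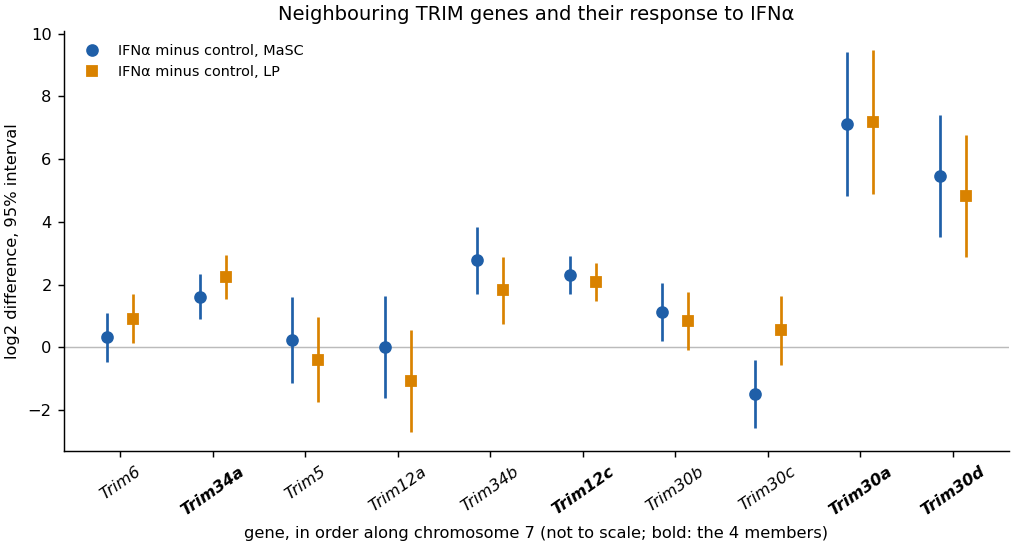
Response to IFNα (log2 difference, vertical axis, lines for 95% intervals from limma) in MaSC (blue circles) and LP (orange squares) of 10 TRIM genes in their order along chromosome 7, not to scale, with the 4 members in bold. Trim30a and Trim30d stand highest, and Trim5 and Trim12a, between Trim34a and Trim34b, have intervals that include 0. The MaSC interval of Trim30c lies below 0.

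Over the 63 other TRIM family genes tested, Pml among them, none passed in the MaSC, LP or average response or in the difference. An unadjusted limma p below 0.05 was reached by 7, 6, 6 and 6 of the 63, beside 4.54%, 7.42%, 6.54% and 4.27% of all genes, and their median average response was -0.02, the same as over all genes. After Trim34b the largest rises were those of Pml, the scaffold of nuclear bodies with antiviral roles, at 1.28 (limma adjusted p = 0.0807), and of Trim10 at 1.20 (adjusted p = 0.72). The largest falls were -0.54 in Trim52, -0.53 in Trim12a and -0.51 in Trim50, none of which passed. Without LP control replicate 1 only Trim34b of these 63 passed in the average response. The ISRE core was found in 3 of the 48 other family genes with a promoter entry (6.25%, beside 3.99% of all genes), namely Trim2, Trim5 and Trim12a.

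The genes with which the members work were followed as a list of 29 measured sensors, adaptors, kinases and conjugating enzymes. In MaSC 5 of them passed, in LP 6 and in the average response 9, all upward. Of all genes 0.229%, 0.33% and 0.587% passed upward. Fewer partners passed in each of these responses without LP control replicate 1. The list's median average response was 0.09, so the rises were those of a minority. Among the RNA sensors, Ddx58, which encodes the RIG-I that Trim25 acts on, went from -0.19 and -0.38 to 1.72 and 1.61 in MaSC and from 0.36 and -0.05 to 1.94 and 1.95 in LP. Its response passed in both (limma adjusted p = 0.0412 and 0.0442) and averaged 1.87 ± 0.15 (adjusted p = 0.00635). The LP call was lost without LP control replicate 1 (2.00, limma adjusted p = 0.085). With each array left out in turn the adjusted p reached 0.342 in MaSC, 0.285 in LP and 0.07 in the average. The sensor Ifih1, which encodes MDA5, rose by 3.31 ± 0.23 (limma adjusted p = 0.00411) and Dhx58, which encodes LGP2, by 3.74 ± 0.26 (adjusted p = 0.00444).

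Downstream of the sensors the picture was mixed. Irf7, the transcription factor that amplifies interferon production, rose by 5.31 ± 0.34 on average (limma adjusted p = 0.00342). Mavs was at -0.10 (95% interval -0.41 to 0.22, limma adjusted p = 0.952), and the kinase Tbk1 at 0.24 (adjusted p = 0.938). The ubiquitin-like modifier Isg15 rose by 6.45 ± 0.60 (limma adjusted p = 0.0113), together with its activating enzyme Uba7 (2.32 ± 0.24, adjusted p = 0.0166), its conjugating enzyme Ube2l6 (3.24 ± 0.23, adjusted p = 0.00452) and its mouse ligase Herc6 (3.31 ± 0.25, adjusted p = 0.00605). Without LP control replicate 1, Uba7 did not pass (limma adjusted p = 0.0502). Counted with the other TRIM family genes, 4 passed without MaSC IFNα replicate 1, 3 without LP IFNα replicate 1 and 2 without LP IFNα replicate 2. Of the 8 passing partners with a promoter entry 3 (37.5%) held the ISRE core (Ddx58, Ifih1 and Isg15), beside 3.99% of all genes. Of the 17 that did not pass none did, and 17 genes are too few to tell none from that share.

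The 5 genes outside the set whose pattern over the 8 arrays was most like the mean of the members were Apol9a (Pearson r = 0.9995), Ddx58 (0.998), Igtp (0.998), Oasl1 (0.997) and Phf11d (0.996). The mean was taken over unscaled ratios, so Trim30a and Trim30d, with the largest responses, weigh most in it. The 8 arrays fall into treated and control sets and share them with the responses above, so the correlations are a description. Without LP control replicate 1 the closest 5 were Apol9a, Apol9b, Oasl1, Ddx58 and Igtp. Among the members themselves, each followed the mean of the other 8 with r between 0.91 and 0.99, except Trim56 with 0.64.

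Marker lists were read on the same arrays. The mean of 11 leukocyte markers lay between -2.52 and -2.26 on 7 arrays and at -0.75 on LP control replicate 1, and in no population did a leukocyte marker pass with IFNα. The mean of 6 endothelial markers was 2.53 to 3.29 in MaSC and -0.10 to 0.61 in LP. In LP it was 0.08 and -0.10 in the controls and 0.61 and 0.56 with IFNα, and Cdh5 passed there. The mean of 6 fibroblast markers was -1.28 to 0.14 in MaSC and -2.77 to -2.10 in LP, and none passed with IFNα. The mean of 7 basal markers was 0.96 to 1.39 in MaSC and -1.80 to -1.02 in LP, higher in every MaSC array. The mean of 7 luminal markers was 4.19 to 4.41 in MaSC and 3.12 to 4.62 in LP, so it did not set the LP fraction apart. The part of these cell types in the TRIM responses was not tested.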

How the data were processed

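Two-colour Agilent arrays carried each sample's RNA in Cy5 and a universal mouse reference RNA in Cy3, per the labels' protocols, and the submitters' processing notes name Agilent Feature Extraction 11.0. The authors deposited 1 log ratio per probe and array, read here as log2 of sample over reference. Their base was inferred from their range and their direction from the dyes, and their normalization is not given in the sources used here. No spot brightness was used, which leaves signal over background unknown, and the number of arrays limits the precision.

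Of 55681 probes 30626 had 1 gene symbol, 25055 had none and 0 had several. The 30398 named probes with a value on all 8 arrays were averaged by symbol into 21794 genes. limma 3.58.1 (R 4.3.3) fitted 1 mean per group over all arrays, with empirical Bayes moderation (degrees of freedom: 4 residual, 1.98 prior). Two-sided p-values were adjusted within each comparison over all genes. The procedure was tested on simulated data.

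The members and gene lists were chosen with earlier results of these data known. Text names all members and their chromosome 7 relatives, other TRIM genes that passed plus the 3 largest rises and falls, up to 8 passing partners with Ddx58, Mavs, Tbk1 and Isg15, and the 5 genes most like the members. Partner genes were TRIM substrates, sensors, kinases and the ISG15 enzymes. Traf3 was not matched to a named probe. Alternatives were a replicate block, quantile normalization, scaling to equal spread, the probe with the highest mean log2 ratio per gene, and single probes. Others were empty probes kept, trend and robust moderation, fits of only the groups compared, and leaving out each array.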

Additional observations from a re-analysis of the deposited data

How the results depend on the processing

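Members passing in MaSC numbered 1 with the settings reported. The count was 0 with single probes or only the groups compared. It was 2 under quantile normalization (Trim30a and Trim30d) and 2 with the probe of highest mean log2 ratio (Trim34a and Trim12c). Scaling to equal spread left 1, but that was Trim30a and not Trim12c, the gene of the reported settings. In LP, 1 member passed. The count was 2 under quantile normalization (Trim30a and Trim30d) and 0 with trend and robust moderation or only the groups compared. It stayed at 1 with scaling to equal spread, where the gene was Trim30a. With the probe of highest mean log2 ratio or single probes it was also 1, and the gene was Trim34a. With 1 array left out, the counts ran from 0 to 2 in MaSC, 0 to 2 in LP and 0 to 5 in the average response, and the 9 passing genes among other family members and partners numbered 2 to 10. Fits of only the groups compared give no average response and no difference, and no gene at all passed in them. The cause of these changes was not tested, beyond the fewer arrays or groups entering such fits.

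Replicate numbers are shared between groups, but arrays of the same number did not deviate together throughout (r from -0.02 to 0.31 over genes). With the replicate block 0 members passed in MaSC, 0 in LP and 3 in the average response (Trim30a, Trim12c and Trim21). Of all genes 12, 27 and 98 then passed, against 51, 72 and 129 with the settings reported.

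Some signs turned, in values that did not pass. With the probe of highest mean log2 ratio, Trim14 was at -0.28 in MaSC, and Trim25 at -0.044 and Trim56 at -0.15 in LP. Trim12a was then at 0.17 on average. Between treated populations Trim12c was then at 0.11, Trim14 at 0.13 and Trim25 at 0.21. Under quantile normalization Trim56 in LP was at -0.16, the difference for Trim21 at 0.27 and the average for Trim5 at 0.076. With arrays scaled to equal spread, which moved the median of all genes between control populations to -0.14, Trim56 in LP was at -0.20 and Trim30a between controls at 0.29. The differences were then 0.44 for Trim21 and 0.063 for Trim26, and the average for Trim5 was 0.0081.

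With 1 array left out, Trim56 in LP ran from -0.024 to 0.084. The difference ran from -1.44 to 1.35 for Trim30a, -0.56 to 1.80 for Trim30d, -0.024 to 0.49 for Trim12c and -0.45 to 0.32 for Trim21. Between controls the range was -2.13 to 0.66 for Trim30a, -0.34 to 0.25 for Trim34a, -0.093 to 0.64 for Trim14 and -0.18 to 0.012 for Trim26, and between treated populations it was -0.073 to 0.039 for Trim25. Tbk1 in MaSC ran from -0.13 to 0.031. The averages of Trim52 (-1.15 to 0.076), Trim12a (-1.06 to 0.0024), Trim50 (-1.18 to 0.16) and Trim5 (-0.52 to 0.35) changed sign too.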
